A study of Mus musculus with 27 samples.

Results

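The cholesterol synthesis genes considered here are 8 genes of the mevalonate and sterol pathway, namely Hmgcs1, Idi1, Fdps, Fdft1, Sqle and Lss, which encode enzymes, and Srebf2 and Insig1, which encode regulators. A gene was given the array row that carried its symbol alone, and the row of highest mean where there were several. By that rule 7 of the 8 genes had a value, out of 22180 genes named on the array, and each of the 7 had a single row. The row for Idi1, an isomerase of isoprene units, carried the symbol of Gm13502 as well, so Idi1 is not analysed here.

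Cells make cholesterol from acetyl-CoA through mevalonate, isoprene diphosphates and squalene, and the last steps convert lanosterol to cholesterol. The genes of the pathway share a transcription factor, SREBP2, which is encoded by Srebf2 and held in the endoplasmic reticulum while sterols are plentiful by INSIG proteins acting on the escort protein SCAP. When sterols run low SREBP2 travels to the Golgi apparatus, is cut free and raises transcription of the enzymes, of Srebf2 itself and of Insig1. Prostate epithelium is known for active lipid synthesis, and androgens are known to raise genes of the pathway in human prostate cancer cells in culture.

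RNA was measured in 27 snap-frozen prostate tumours, 1 array for each tumour and each tumour from a different male. All 27 males were transgene-positive F2 offspring of C57BL/6-Tg(TRAMP)8247Ng/J crossed to PWK/PhJ, bred from transgene-negative sires and transgene-positive dams, and tumour burden was scored at 30 weeks of age or at a humane endpoint. The TRAMP transgene expresses the SV40 early region from the probasin promoter, which is active in androgen-exposed prostate epithelium. The labels place all tumours in 1 group with no untreated, non-transgenic or normal prostate sample, give no genotype and name no batch, so the comparisons below are among tumours and use the animal number as a name (P966, for example). Each tumour was measured once, so a difference between single tumours has no replicate error of its own, and p-values measure the relation across the 27 animals.

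The deposited values were log2 expression levels between 1.68 and 14.5, with array medians between 5.67 and 5.82 and correlations between arrays from 0.891 to 0.986. The lowest value of any of the 7 genes was 7.48, above the highest array median. Of the markers of the labelled tissue, the homeobox gene Hoxb13 had a median of 8.68 with a lowest value of 4.47 in P471. The secretory gene Pbsn was at a median of 3.58, near the low end of the scale, with 8.70 in P425 and 7.60 in P219. Tumours P471, P966, P425 and P1276 stood apart with the lowest neuroendocrine scores, at -3.08, -2.37, -2.11 and -1.73, and P425 and P219 with the highest androgen-responsive scores, at 4.06 and 2.44. To score a list, each measured gene was centred on its own average across tumours and the centred log2 levels were averaged.

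The promoters are shown because the pathway's shared control acts through a short DNA element near the start of its genes. RefSeq's promoter table (GRCm38.p6) held 4 of the 7 genes, all on the plus strand, and Sqle, Fdps and Fdft1 are named only. The sequences are the 250 bases before the start site, 5′ to 3′. Capitals mark matches on either strand to TCACNCCAC, a form of the sterol regulatory element, or to its shorter form TCACNCCA where the longer one does not match, and to CCAAT, the box bound by NF-Y, which reads ATTGG on the opposite strand. The bases are those of the reference strain, and the PWK/PhJ alleles that F2 animals can carry are not analysed here; whether they hybridised differently to the arrays was not tested.
Hmgcs1, chr13:119690101-119690350: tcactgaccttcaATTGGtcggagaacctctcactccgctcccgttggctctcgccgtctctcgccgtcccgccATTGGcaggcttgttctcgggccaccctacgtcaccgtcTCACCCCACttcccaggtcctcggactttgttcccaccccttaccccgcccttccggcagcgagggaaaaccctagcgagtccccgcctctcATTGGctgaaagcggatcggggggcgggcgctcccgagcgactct
Srebf2, chr15:82147019-82147268: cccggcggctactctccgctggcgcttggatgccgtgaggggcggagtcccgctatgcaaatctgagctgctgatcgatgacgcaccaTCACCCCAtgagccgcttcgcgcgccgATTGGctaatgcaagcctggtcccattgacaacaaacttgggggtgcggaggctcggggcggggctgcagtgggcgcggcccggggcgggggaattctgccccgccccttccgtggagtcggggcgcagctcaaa
Insig1, chr5:28071162-28071411: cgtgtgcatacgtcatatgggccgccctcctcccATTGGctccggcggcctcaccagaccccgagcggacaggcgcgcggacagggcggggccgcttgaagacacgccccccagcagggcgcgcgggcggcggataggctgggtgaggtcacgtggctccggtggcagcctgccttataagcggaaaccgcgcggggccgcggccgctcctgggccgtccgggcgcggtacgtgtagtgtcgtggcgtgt
Lss, chr10:76531355-76531604: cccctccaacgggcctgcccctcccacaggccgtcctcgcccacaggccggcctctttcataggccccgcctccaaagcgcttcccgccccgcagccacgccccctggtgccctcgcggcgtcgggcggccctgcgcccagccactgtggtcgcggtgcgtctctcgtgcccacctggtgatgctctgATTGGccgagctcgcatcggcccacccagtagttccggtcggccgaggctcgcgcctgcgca

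The longer form TCACNCCAC, which contains TCACNCCA, matched at positions -137 to -129 of Hmgcs1, counted back from the start site, and in no other of the 4 promoters. It was present in 1.05% of the 32851 promoters in the table. The shorter form, a choice made after the Srebf2 promoter had been read, also matched at -162 to -155 of Srebf2, against 3.67% of all promoters. CCAAT matched in 4 of 4 promoters of these genes and GGGCGG, the GC box bound by Sp1, in 4 of 4, against 33.8% and 32.7% of all promoters. Among 12 further enzymes of the pathway with a promoter in the table, CCAAT matched in 12, GGGCGG in 11, TCACNCCA in 1 (Msmo1) and TCACNCCAC in 0. These are counts of genes with a match in any of their promoters, whereas the percentages above are shares of promoters. Pmvk and Dhcr7 have several promoters, and not each of them holds a CCAAT. A match is a description of the letters and says nothing of binding in these tumours.

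The 5 enzymes each ranged over 2-fold to 3-fold between the lowest and the highest tumour. Hmgcs1, the HMG-CoA synthase of the cytosol and the entry step to mevalonate among these genes, averaged 9.74 ± 0.36 log2 (SD, n = 27), with a lowest value of 8.92, a median of 9.66 and a highest value of 10.43. P902 and P966 (10.37) were the highest tumours and P219 and P425 (9.13) the lowest, and the range amounts to 2.83-fold. Fdps, which joins isoprene units to farnesyl diphosphate, averaged 9.51 ± 0.31 log2 (SD, n = 27), with 8.97 in P1394, a median of 9.45 and 10.18 in P1276. P803 (10.10) was next to P1276, and the range amounts to 2.31-fold.

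Fdft1, the squalene synthase gene that commits farnesyl diphosphate to sterols, averaged 10.49 ± 0.34 log2 (SD, n = 27), from 9.89 in P217 over a median of 10.37 to 11.37 in P474. P609 (11.22) was second, so the 2 tumours highest for Fdft1 were not the 2 highest for Hmgcs1 or for Fdps. P609 still lay above the median for both, at 10.06 for Hmgcs1 and 9.88 for Fdps. Sqle, the squalene epoxidase gene that adds the first oxygen, averaged 9.27 ± 0.31 log2 (SD, n = 27), from 8.45 in P425 over a median of 9.30 to 9.82 in P237. Its lowest tumours, P425 and P219 (8.70), were also the lowest for Hmgcs1. Lss, the lanosterol synthase gene that closes the sterol rings, averaged 8.10 ± 0.26 log2 (SD, n = 27), from 7.48 in P1394 over a median of 8.07 to 8.61 in P902. The spread of each enzyme was near that of a typical gene, with SDs between percentile 39.5 (Lss) and percentile 60.4 (Hmgcs1) of the SDs of all 22180 genes, whose median was 0.30 log2.

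The 2 regulators came next. Srebf2, the gene of the transcription factor, averaged 9.87 ± 0.29 log2 (SD, n = 27), from 9.32 in P474 over a median of 9.85 to 10.33 in P966, a 2.01-fold range and the narrowest of the 7 genes. P474, the tumour of highest Fdft1, was the tumour of lowest Srebf2. Insig1, which encodes the sterol-dependent brake on SREBP processing and is itself raised by SREBP, averaged 9.40 ± 0.53 log2 (SD, n = 27), from 8.76 in P502 over a median of 9.26 to 10.99 in P966. Its range was 4.70-fold and its SD lay at percentile 79.2 of all genes.

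Insig1 was the only one of the 7 genes whose levels fell into separate clusters by the mixture-model rule given under the processing. The upper cluster held 4 tumours, P966 at 10.99, P1276 at 10.63, P803 at 10.24 and P471 at 10.22 log2. The other 23 tumours lay between 8.76 and 9.67 log2, so a gap of 0.55 log2 separated the clusters, against an SD of 0.23 within the lower one. All 4 tumours of the upper cluster were among the 8 of highest luminal epithelium score (1.76 to 2.58 in these 4, median of all tumours -0.67), and 3 of them, P966, P1276 and P471, were among the 4 of lowest neuroendocrine score. P803 had the highest neuroendocrine score of all, 0.83. The part of tissue composition in the Insig1 clusters was not tested, and in bulk tumours fewer cells of a type cannot be told apart from less RNA per cell.

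**Figure D1:**
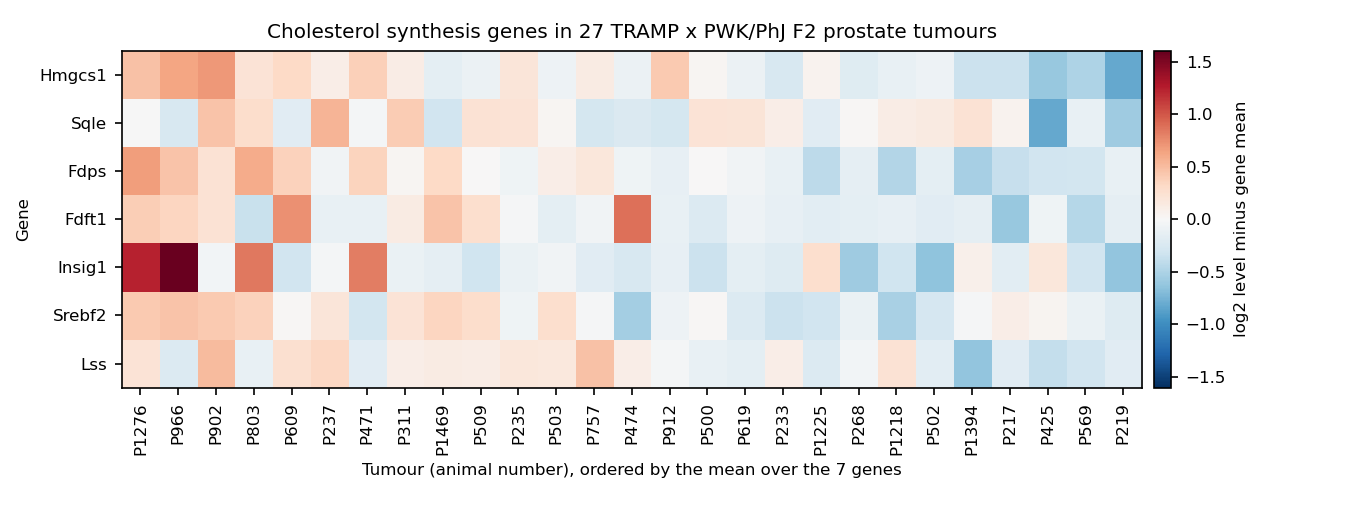
Level of each of the 7 genes (rows) in each tumour (columns) as log2 level minus the gene's mean, in colour from blue (low) to red (high), with tumours ordered by the mean over the 7 genes. The left columns P1276, P966, P902 and P803 are red in most rows, Insig1 is darkest in P966 and P1276, and P425, P569 and P219 stand at the right.

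Averaged over the 7 genes, the centred level was highest in P1276 (0.48 log2), P966 (0.43), P902 (0.35) and P803 (0.26). It was lowest in P219 (-0.38), P569 (-0.30) and P425 (-0.28). P1276 and P966 were each among the top 5 tumours for 5 of the 7 genes, and P902 and P803 each for 4. P425 was among the bottom 5 for 4 genes. P902 and P311 lay above the median for 7 of 7 genes, and P268, P569 and P219 for 0 of 7. P966, second by the mean, was still below the median for Sqle (9.02) and for Lss (7.89), so the genes did not all rank the tumours alike.

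Pairs of the 7 genes were compared from tumour to tumour. Of the 21 pairs 16 had a Pearson correlation above 0, with a median r of 0.26 and a range from -0.17 to 0.64. Pairs with Insig1 were taken within the 23 tumours of its lower cluster. After adjustment over all 153 relations computed (Benjamini-Hochberg over two-sided permutation tests), 2 of the 21 pairs passed the threshold of 0.05 by both r and Spearman's rho, and 7 had an unadjusted p of r under it.

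Both of those pairs involved Fdps. Hmgcs1 and Fdps, an early and a middle step, had r = 0.64 (permutation p = 2.3e-04, adjusted p = 0.0070) and rho = 0.68 (permutation p = 1.4e-04, adjusted p = 0.0092) over 27 tumours, and r was 0.70 without P902 and P219, the tumours farthest from the median of Hmgcs1. Fdps and Srebf2 had r = 0.60 (permutation p = 9.7e-04, adjusted p = 0.021) and rho = 0.62 (permutation p = 6.2e-04, adjusted p = 0.024), and r was 0.49 without P1276 and P803.

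Sqle had no relation past the threshold with another of the 7 genes. Its r was 0.05 with Fdps (adjusted permutation p = 0.93), -0.16 with Fdft1 (adjusted permutation p = 0.73) and 0.35 with Hmgcs1 (adjusted permutation p = 0.32). The rho values of these pairs were 0.05, -0.17 and 0.18, and r with Hmgcs1 was 0.12 without the 2 tumours farthest from the median of Hmgcs1, P902 and P219. Hmgcs1 and Lss had r = 0.47 and rho = 0.44 (adjusted permutation p = 0.12 and 0.22), and r was 0.36 without P902 and P219. Within the lower cluster Hmgcs1 and Insig1 had r = 0.21 and rho = 0.21 (adjusted permutation p = 0.67 and 0.71, n = 23), and r was -0.09 without the 2 farthest tumours.

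Hmgcs1 also followed the mean of the other pathway enzymes. With the score of 12 further enzymes (Mvk, Pmvk, Mvd, Cyp51, Tm7sf2, Lbr, Msmo1, Nsdhl, Hsd17b7, Ebp, Sc5d and Dhcr7) its r was 0.75 and its rho 0.74 (permutation p = 1e-05 for both, the smallest that 100000 permutations can give, adjusted p = 0.0015 for both), and r was 0.74 without P902 and P219. For Fdps the same relation had r = 0.71 and rho = 0.67 (adjusted permutation p = 0.0038 and 0.0092), and r was 0.62 without P1276 and P803. The mRNA of Srebf2 had r = 0.49 and rho = 0.53 with this score (adjusted permutation p = 0.098 and 0.099), which missed the threshold. The 12 enzymes were listed by function.

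To ask whether the pathway rose and fell with its entry enzyme, all other 22179 genes were fitted on the level of Hmgcs1 with limma, with slopes in log2 per SD of Hmgcs1. At an adjusted p under 0.05, 3 genes (0.0135% of those tested) were called, all rising with Hmgcs1. Cyp51, the lanosterol demethylase gene, was one of them, with a slope of 0.32 ± 0.05 (SE, limma adjusted p = 0.011). The others, named after their values were seen, were Epdr1 (0.34 ± 0.05, limma adjusted p = 0.011) and Vangl2 (0.39 ± 0.07, limma adjusted p = 0.033). At an unadjusted p under 0.05 there were 2200 genes (9.92%). The count of 3 was 0 without P966 or without P425 and 9 without P902.

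Of the 6 other cholesterol synthesis genes 0 were called by limma, against 0.0135% of all genes. At an unadjusted p under 0.05 there were 5 of 6, all with slopes above 0, against 6.37% of all genes. The 6 slopes were all above 0, against 57.3% of all genes, with a median of 0.13 against 0.01 log2 per SD over all genes. Insig1 had a slope of 0.29 ± 0.09 (SE, limma adjusted p = 0.19) and Fdps one of 0.20 ± 0.05 (limma adjusted p = 0.12). All limma slopes of Insig1 were taken across both of its clusters, so they include the difference between the clusters. Within the lower cluster its r with Hmgcs1 was 0.21 (adjusted permutation p = 0.67, n = 23). Slopes for Fdft1, Lss, Srebf2 and Sqle lay between 0.11 and 0.13, with limma adjusted p between 0.37 and 0.56.

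Of the 12 further enzymes 1 (Cyp51) was called, and 12 of 12 slopes were above 0 with a median of 0.14 log2 per SD. Cyp51 was highest in P966 at 9.26 log2, followed by P1276 and by P471 at 8.95, above the other 24 tumours (7.35 in P425 to 8.65 in P902). These 3 are among the 4 tumours of lowest neuroendocrine score, and without those 4 the slope of Cyp51 was 0.17 (limma adjusted p = 0.28). It also missed the threshold without P966 (adjusted p = 0.11) and without P425 (adjusted p = 0.079), after quantile normalization (0.056), with ranks of Hmgcs1 (0.10) and with the smooth muscle score as covariate (0.12), 6 of 37 alternatives in all. Hsd17b7, a ketosteroid reductase gene of the sterol branch, had a slope of 0.31 ± 0.07 (SE, limma adjusted p = 0.12), and Dhcr7, a reductase gene of the last steps, one of 0.22 ± 0.07 (limma adjusted p = 0.21).

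With the luminal epithelium score as a covariate more of the pathway was called. The fit then called 314 genes (1.42% of those tested, 0.974% rising), among them 2 of the 6 cholesterol synthesis genes and 5 of the 12 further enzymes, all rising. Fdps had a slope of 0.22 ± 0.04 (SE, limma adjusted p = 0.011) and Insig1 one of 0.32 ± 0.06 (limma adjusted p = 0.017). The slope of Insig1 again spans both of its clusters, and this fit was not run within the lower one. The 5 further enzymes were Cyp51 (limma adjusted p = 0.005), Msmo1, a sterol methyl oxidase gene (0.033), Hsd17b7 (0.037), and Mvk and Mvd, the kinase and decarboxylase genes of the mevalonate steps (0.044 each). Of the 37 alternatives this was the only setting in which any of the 6 cholesterol synthesis genes was called on Hmgcs1. Single tumours were not left out in the fit with this covariate, so its dependence on them was not tested.

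**Figure D2:**
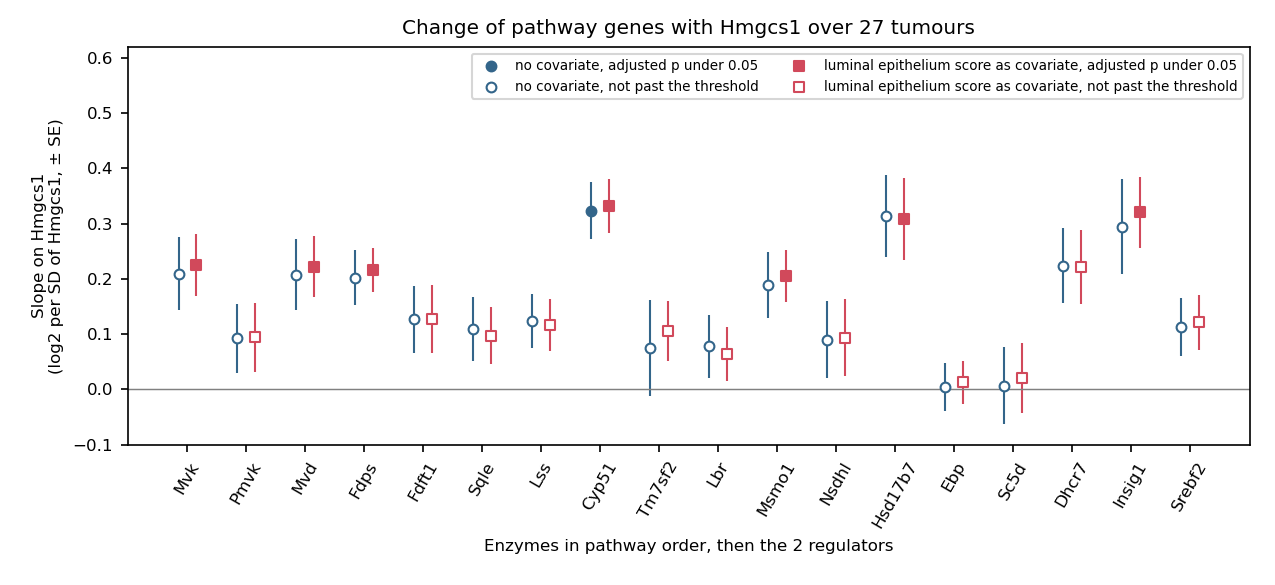
Slope of each enzyme in pathway order and of the 2 regulators on the level of Hmgcs1 (log2 per SD of Hmgcs1, bars are SE, n = 27), without a covariate (circles) and with the luminal epithelium score as covariate (squares), filled where the limma adjusted p was under 0.05. The circles all lie above 0 and only that of Cyp51 is filled, while 7 squares are filled.

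**Figure D3:**
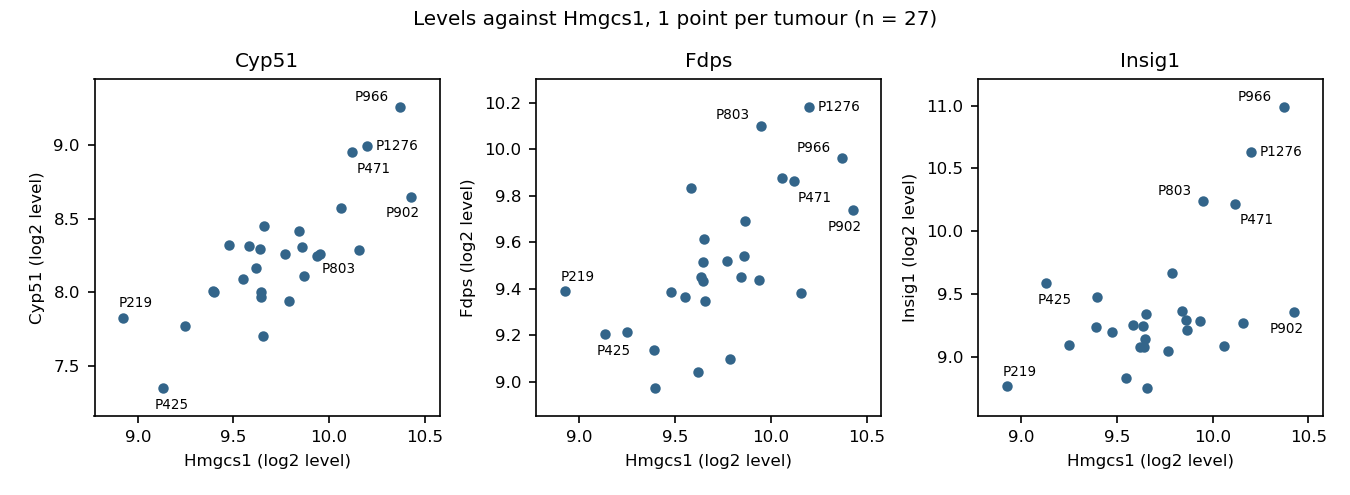
Log2 levels of Cyp51, Fdps and Insig1 against that of Hmgcs1, 1 point for each of 27 tumours, with 7 tumours named. P966, P1276 and P471 lie at the upper right for Cyp51, P803 and P1276 are highest for Fdps, and for Insig1 P966, P1276, P803 and P471 lie apart from the other 23 while P902, highest for Hmgcs1, does not.

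Genes around the pathway were not called on Hmgcs1 in the fit without a covariate. Of 9 genes of SREBP processing and sterol sensing 0 passed in limma. At an unadjusted p under 0.05, 1 rose and 2 fell, against 6.37% of all genes rising and 9.92% in either direction. Of the 9 slopes 3 were above 0, against 57.3% of all slopes. Erlin1, an endoplasmic reticulum membrane protein gene, had the steepest at -0.39 ± 0.10 (SE, limma adjusted p = 0.14), and Scap, the SREBP escort, had 0.15 ± 0.07 (limma adjusted p = 0.47). Of 6 genes of sterol uptake and transport 0 passed, with 3 rising at an unadjusted p under 0.05, against 6.37% of all genes. The slope was 0.26 ± 0.09 for Npc1, which exports cholesterol from lysosomes (limma adjusted p = 0.31), and 0.24 ± 0.07 for Tmem97 (limma adjusted p = 0.16). With the luminal epithelium score as covariate Scap and Npc1 rose and Erlin1 fell with Hmgcs1 at a limma adjusted p under 0.05.

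The level of Srebf2 mRNA was used in the same way to ask whether the genes it controls followed it. That fit called 112 of 22179 genes (0.505%), 52 rising and 60 falling, and 4094 (18.5%) at an unadjusted p under 0.05. Leaving out single tumours moved the count of 112 by over 1.5 times in 22 of 27 cases, from 1 (without P233, P1469 or P1218) to 446 (without P425). Of the 6 other cholesterol synthesis genes 0 were called, and 3 of 6, against 12.1% of all genes rising, had an unadjusted p under 0.05. Their slopes were all above 0, as were 61.9% of all slopes, with a median of 0.10 against 0.03 log2 per SD over all genes. Fdps came nearest the threshold, at 0.19 ± 0.05 (SE, limma adjusted p = 0.075). Hmgcs1 had 0.14 ± 0.06 (limma adjusted p = 0.24) and Insig1 0.25 ± 0.09 (limma adjusted p = 0.15).

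The call for Fdps on Srebf2 turned on the scaling of the arrays and on 1 tumour. Its limma adjusted p was 0.029 after quantile normalization, 0.033 with arrays centred on their medians and 0.047 without P425. Scaling also moved the whole fit, to 762 rising and 398 falling genes after quantile normalization and 582 and 116 with centred arrays.

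Of the 12 further enzymes 1 was called on Srebf2, Tm7sf2, a sterol C14-reductase gene, at 0.29 ± 0.07 (SE, limma adjusted p = 0.048), a call lost in 24 of 37 alternatives. Tm7sf2 ranged from 6.36 log2 in P1218 over a median of 6.98 to 8.20 in P966. Mvd had a slope of 0.23 (limma adjusted p = 0.069) and Mvk one of 0.22 (limma adjusted p = 0.083). Of the SREBP processing genes 0 of 9 passed in limma, with 3 rising and 1 falling at an unadjusted p under 0.05, against 12.1% and 6.31% of all genes. The slope was 0.27 ± 0.11 for Srebf1, the gene of the related factor SREBP1 (limma adjusted p = 0.18), and 0.21 ± 0.06 for Scap (limma adjusted p = 0.086).

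Another branch leads from isoprene diphosphates to products other than sterols. The score of 6 of its genes was lower where Srebf2 was higher, with r = -0.66 and rho = -0.61 (adjusted permutation p = 0.0066 and 0.024), and r was -0.56 without P474 and P1218. In the limma fit 0 of the 6 were called singly, 2 had slopes above 0, and 2 were falling at an unadjusted p under 0.05, against 6.31% of all genes. Rabggtb, a subunit gene of the enzyme that prenylates Rab proteins, had the steepest slope at -0.41 ± 0.12 (SE, limma adjusted p = 0.082), followed by Ggps1, the geranylgeranyl diphosphate synthase gene, at -0.30 ± 0.08 (limma adjusted p = 0.079). Neither was called on Hmgcs1, with slopes of -0.13 ± 0.14 for Rabggtb (limma adjusted p = 0.83) and 0.04 ± 0.10 for Ggps1 (limma adjusted p = 0.95).

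Whether the pathway followed the prostate's secretory state was asked with the score of 10 androgen-responsive and secretory genes. That fit called 2494 of 22170 genes (11.2%), 1085 of them (4.89%) falling, and 523 genes without P425. Of the 7 cholesterol synthesis genes 2 fell with the score and 0 rose. Sqle had a slope of -0.19 ± 0.05 log2 per SD of the score (SE, limma adjusted p = 0.010) and Hmgcs1 one of -0.18 ± 0.06 (limma adjusted p = 0.047). The other 5 had slopes between -0.09 and -0.03 with limma adjusted p from 0.29 to 0.82. Of the 12 further enzymes 2 fell, Lbr (-0.19 ± 0.05, limma adjusted p = 0.0065) and Hsd17b7 (-0.26 ± 0.08, limma adjusted p = 0.040), and 0 rose.

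The calls of Sqle and Hmgcs1 depended on single tumours. That of Hmgcs1, near the threshold, was lost in 23 of 37 alternatives, 16 of them the omission of 1 tumour, and that of Sqle in 7. P425 and P219 had the highest scores, and neither Sqle nor Hmgcs1 was called without P425, without P219 or without both, where the slopes were -0.03 for each (limma adjusted p = 0.96 for Sqle and 0.97 for Hmgcs1). The smooth muscle score was 2.06 in P425 and 2.37 in P219, against a median of -0.18, and the adipocyte score 2.79 and 1.31, against a median of -0.19. Along the androgen-responsive score 7 of 8 smooth muscle and 6 of 6 adipocyte genes rose and 12 of 14 mitosis genes fell. With the smooth muscle score as covariate the slope of Sqle was -0.05 and that of Hmgcs1 -0.12 (limma adjusted p = 1.0 for each), and their calls were also lost with ranks of the score and without the 4 tumours of lowest neuroendocrine score.

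With the luminal epithelium score as covariate other genes of the pathway were called on the androgen-responsive score. That fit called 1502 genes (6.77%), 679 of them (3.06%) falling. Of the 7 cholesterol synthesis genes 2 fell, Hmgcs1 (-0.22 ± 0.07, SE, limma adjusted p = 0.049) and Insig1 (-0.29 ± 0.08, limma adjusted p = 0.037), while Sqle missed the threshold (-0.15, limma adjusted p = 0.088). Of the 12 further enzymes 3 fell, Mvd (limma adjusted p = 0.011), Cyp51 (0.027) and Mvk (0.046), and Lbr and Hsd17b7 were not among them.

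Along the score of 14 mitosis genes 5458 of 22166 genes (24.6%) were called, 2644 of them (11.9%) rising, and 2729 genes without P425. Of the 7 cholesterol synthesis genes 1, Sqle, rose, with 0.20 ± 0.05 log2 per SD of the score (SE, limma adjusted p = 0.0028). The other 6 had slopes from -0.16 for Insig1 to 0.08 for Hmgcs1, with limma adjusted p between 0.25 and 0.78, so 1 of 7 was near the share of all genes. Of the 12 further enzymes Lbr rose (0.21 ± 0.04, limma adjusted p = 5.2e-04) and Tm7sf2 fell (-0.21 ± 0.08, limma adjusted p = 0.049), both of them sterol C14-reductase genes. The call of Tm7sf2 was lost in 25 of 37 alternatives, centring of the arrays and 20 omissions of 1 tumour among them.

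P425 had the lowest mitosis score, -1.83, and the lowest Sqle. Without it Sqle had a slope of 0.12 and was not called (limma adjusted p = 0.11). The call was also lost with the luminal epithelium score (0.17, limma adjusted p = 0.086) or the smooth muscle score (0.11, limma adjusted p = 0.15) as covariate, and without the 4 tumours of lowest neuroendocrine score (0.12, limma adjusted p = 0.17). These were 4 of 37 alternatives. Sqle was still called with ranks of the score and without P425 and P803 together, the 2 tumours farthest from the median score. With the smooth muscle covariate, where 3819 genes (17.2%) were called and 9.3% of all genes fell, Insig1 was the 1 of the 7 called, at -0.35 (limma adjusted p = 0.032). Along the mitosis score 10 of 12 luminal epithelium and 6 of 8 smooth muscle genes fell and 6 of 12 neuroendocrine genes rose, and the part of these cell types in the slope was not tested beyond these fits.

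**Figure D4:**
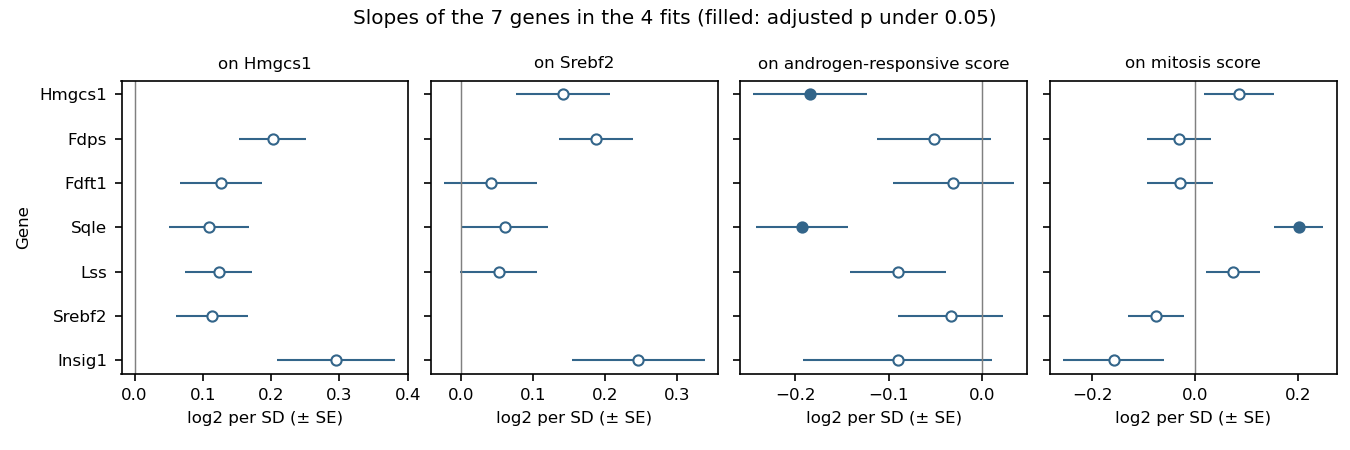
Slopes of the 7 genes (rows) in the 4 fits (panels), in log2 per SD of the predictor with SE bars, n = 27, filled where the limma adjusted p was under 0.05. No point is filled on Hmgcs1 or on Srebf2, Hmgcs1 and Sqle are filled below 0 on the androgen-responsive score, and Sqle is filled above 0 on the mitosis score.

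As correlations, Sqle had r = 0.65 and rho = 0.43 with the mitosis score (adjusted permutation p = 0.012 and 0.23), -0.68 and -0.57 with the smooth muscle score (0.0070 and 0.063), -0.62 and -0.33 with the androgen-responsive score (0.021 and 0.40) and -0.60 and -0.37 with the adipocyte score (0.026 and 0.33). Leaving out P425 and P219 brought r to 0.34, -0.36, -0.12 and -0.11, so the first values rest on those tumours. None of the other 6 genes had an adjusted p under 0.05 by r or rho with these 4 scores. The same held for the luminal epithelium, neuroendocrine and basal epithelium scores, but these were compared only within their separate clusters of tumours. All correlations of Insig1 were taken within its lower cluster, unlike its limma slopes. Differences between clusters, such as the high luminal epithelium scores of the upper Insig1 cluster, were therefore not tested by these correlations.

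**Figure D5:**
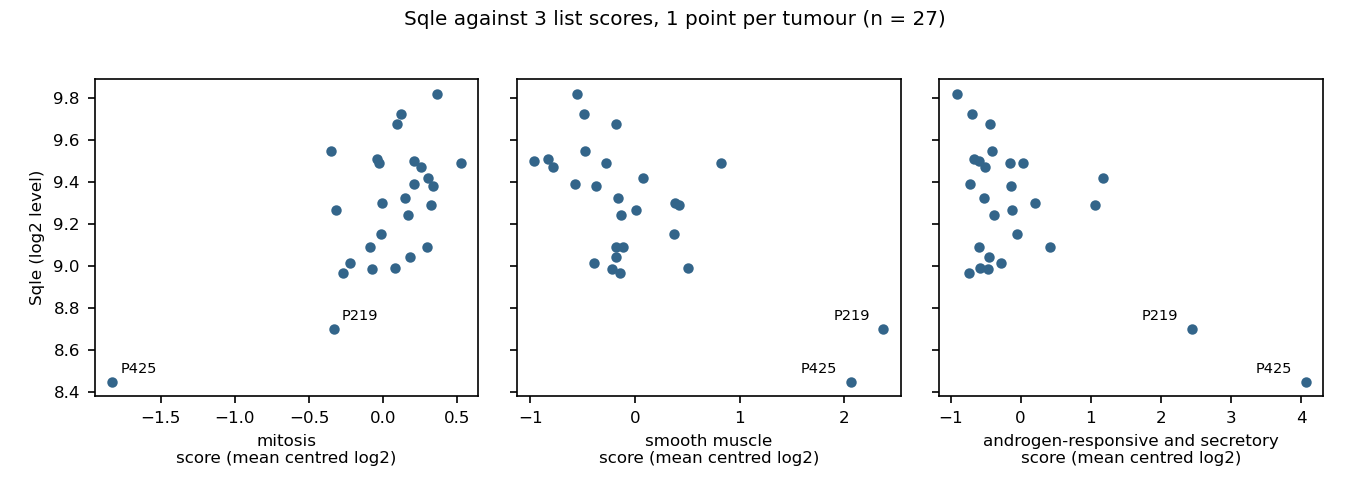
Log2 level of Sqle against the mitosis, smooth muscle and androgen-responsive scores (mean centred log2), 1 point for each of 27 tumours. P425 lies lowest in each panel, P219 next to it, and both lie far to the right of the others for the smooth muscle and androgen-responsive scores.

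The genes most like the 7 as a group were sought by Pearson's r with their mean centred level over the 27 tumours, as a description with no test. Genes with provisional symbols (Rik, Gm, LOC, BC, AI, AU or accession forms) were left out. The 10 highest of the rest, from r = 0.78 to r = 0.76, were Fdxacb1, Eif3b (a translation initiation factor subunit), Ruvbl2 (an ATPase of chromatin complexes), Cryz (a quinone reductase), Stx1a (a syntaxin of vesicle fusion), Prelid3b, Wdr3, Cyp51, Seh1l (a nuclear pore protein) and Noc4l. Cyp51 was thus the 1 pathway enzyme among them. Without P1276 and P966, the tumours of highest mean, r lay between 0.62 for Wdr3 and 0.77 for Prelid3b. Fdxacb1 had 0.78 with all tumours and 0.66 without these 2. Points share the array of each tumour, so array-wide differences enter every one of these values.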

How the data were processed

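Expression was measured in 27 tumours, 1 biotin-labelled array each. The deposited table holds log2 values made by the authors with Partek, per the submitters' processing notes; its version, like the background correction and any normalization, was not given in the sources used here. Array medians were close, so the values were used as deposited; arrays hold no read depth, and their number limits the precision. Of 41345 rows 23521 had 1 gene symbol on the platform table, 1814 had several and 16010 are unnamed here; the row of highest mean was kept for 1082 genes with several rows, giving 22180 genes.

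All tumours form 1 group. Genes were fitted on Hmgcs1, Srebf2 or a list score, scaled to SD 1, with limma 3.58.1 in R 4.3.3 (lmFit, eBayes with trend), leaving out the predictor's own genes, with Benjamini-Hochberg adjustment over all genes and a threshold of 0.05. Separate clusters required, in mclust 6.1.1, a BIC gain above 6 for a second component, an Ashman's D above 2 and 3 or more tumours in the smaller cluster; correlations stayed within clusters of 6 or more and were tested with 100000 permutations. Scripts were tested on simulated data. Of 180 genes in 19 lists 159 had a value. The members, lists and rules were chosen with earlier results of these data known. The naming rule took the 7 genes, each further enzyme called on Hmgcs1 or Srebf2, and the 10 genes most like the mean of the 7, provisional symbols left out. It also took the 3 genes of each pathway list with the steepest slope on Hmgcs1 and on Srebf2, of which only some are given here. Of the 6 sterol efflux and 9 fatty acid synthesis genes 0 were called on Hmgcs1 or on Srebf2 without a covariate. Other names were chosen after their values were seen. Alternatives were quantile normalization, centring, a filter on low genes, the mean of a gene's rows, the luminal epithelium score or animal number as covariate, ranks, and leaving out each tumour or the 2 farthest. Leaving out the 4 tumours of lowest neuroendocrine score and the smooth muscle score as covariate were added after seeing the data.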

Additional observations from a re-analysis of the deposited data

How the results depend on the processing

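No paired analysis was possible because all 27 tumours belong to 1 group. The number of genes called on Hmgcs1 (3) was 1 after quantile normalization, 6 with centred arrays, 5 with low genes left out, 314 with the luminal epithelium score as covariate, 1 with ranks and 0 without the 4 tumours of lowest neuroendocrine score; cholesterol synthesis genes called on it (0) were 2 with the luminal score. On Srebf2 (112 genes) the counts were 1160 by quantile normalization, 698 centred, 2 with the luminal score, 7 with animal number, 1 without the 2 farthest tumours, 1 without the 4 tumours and 629 with the smooth muscle score; of the cholesterol synthesis genes (0) Fdps was the 1 called after quantile normalization or centring. On the androgen-responsive score (2494) they were 1502 with the luminal score, 392 with ranks, 58 without the 2 farthest, 1097 without the 4 tumours and 101 with the smooth muscle score; of its 2 cholesterol synthesis genes 1 was called by quantile normalization, centring or animal number and 0 by ranks, without the 2 farthest, without the 4 tumours or with the smooth muscle score, and with the luminal score Insig1 took the place of Sqle. On the mitosis score (5458) they were 1659 with the luminal score, 2118 without the 2 farthest and 1919 without the 4 tumours; Sqle, the 1 cholesterol synthesis gene, was lost (0) with the luminal score and without the 4 tumours, and with the smooth muscle score Insig1 was called in its place. The cause of these changes was not tested. Leaving out each tumour in turn gave 0 (without P966 or P425) to 9 (without P902) genes on Hmgcs1, 1 (without P233, P1469 or P1218) to 446 (without P425) on Srebf2, 523 (without P425) to 2976 (without P471) on the androgen-responsive score and 2729 (without P425) to 5941 (without P471) on the mitosis score. Cholesterol synthesis genes called ranged over 0 to 0, 0 to 1, 0 to 2 and 0 to 1 in these fits. The slope of Tm7sf2 on the mitosis score changed sign to 0.0094 with the luminal score. The count of pairs past the threshold and the SDs of the 7 genes stayed within their limits under quantile normalization and centring. Those limits are not given here, so staying within them does not show that the values were unchanged. The mean of all rows could not change the SDs or the correlations of these pairs, because each of the 7 genes has a single row. Values near the array median are close to background, and a tumour measured on 1 array has no error of its own.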

Other observations

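Genes of lipid metabolism around the pathway, named here after their values were seen, were called in both directions along the mitosis score, on which 24.6% of all genes were called. Of 9 fatty acid synthesis genes 2 rose, the desaturase genes Fads1 (0.37 ± 0.07 log2 per SD, SE, limma adjusted p = 1.9e-04) and Fads2 (0.28 ± 0.06, limma adjusted p = 0.0016), and 2 fell, Scd1 (-0.97 ± 0.35, limma adjusted p = 0.040) and Fasn (-0.16 ± 0.06, limma adjusted p = 0.043). Scd1 ranged from 4.80 log2 in P1394 to 11.7 in P425. Of 9 genes of SREBP processing 4 fell, Srebf1 (-0.37 ± 0.09, limma adjusted p = 0.0046), Erlin2, Scap and the protease gene Mbtps1, and the protease gene Mbtps2 rose (0.30 ± 0.08, limma adjusted p = 0.0062). Of 6 isoprenoid branch genes Ggps1 (0.29 ± 0.08, limma adjusted p = 0.013) and Rabggtb (0.39 ± 0.12, limma adjusted p = 0.018) rose. With the luminal epithelium score as covariate Fads1 and Fads2 were still called, and the calls of the other 9 genes named here were lost.

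Along the androgen-responsive score 11.2% of all genes were called, and Sqle and Hmgcs1 fell. Of 9 genes of SREBP processing 1 was called, Erlin1, which rose (0.51 ± 0.08, limma adjusted p = 1.4e-04). Of 6 genes of sterol uptake 1 was called, the lipoprotein receptor gene Scarb1, which rose (0.32 ± 0.08, limma adjusted p = 0.0046). Of 6 efflux genes 1 was called, Mylip, whose ubiquitin ligase degrades the LDL receptor, and it rose (0.41 ± 0.12, limma adjusted p = 0.026). Of 9 fatty acid synthesis genes Scd1 rose (1.35, limma adjusted p = 0.0026, lost in 3 of 37 alternatives) and Fads2 fell. The call of Mylip was lost in 7 of 37 alternatives, among them without P425 and without P219, and that of Erlin1 in 3, with ranks, with the smooth muscle score as covariate and without both tumours. With the luminal epithelium score as covariate, where 6.77% of all genes were called, the calls of Scarb1, Mylip and Scd1 were lost. In that fit Stard4 of the uptake genes (limma adjusted p = 0.042) and Abcg1 of the efflux genes (limma adjusted p = 7.4e-04) were called instead, both falling. Npc1 was at 10.29 log2 in P1276, 10.27 in P966 and 10.01 in P471, and between 8.09 and 9.07 in the other 24 tumours; the same 3 tumours were highest for Cyp51 and belonged to the upper cluster of Insig1. They had fibroblast scores of 0.85, 1.26 and 1.48, against a median of -0.01. P502 and P235 (0.96) also lay above P1276 in the fibroblast score, so it did not set the 3 tumours apart. The basal epithelium score was highest in P1276 (1.85), P966 (1.43) and P471 (1.20), followed by P219 (0.97). The part of cell types in the Npc1 and Cyp51 levels was not tested.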
